A study of Mus musculus with 40 samples.

Results

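A set of 10 genes of the red cell lineage was followed through mouse bone marrow cells, both haematopoietic stem cells (HSCs) and the multipotent progenitors below them (MPPs), in libraries labelled KO or WT for the histone chaperone gene Hira. They are the adult globin genes Hba-a1, Hba-a2, Hbb-bs and Hbb-bt, the membrane protein genes Rhag, Aqp1, Tspo2 and Ermap, and the carbonic anhydrase genes Car1 and Car2. They were taken by symbol from the 6 expression tables, 1 for each sorted population, so 10 of 26640 and of 26598 listed genes are described in the HSC and MPP tables of the first cohort. In the 4 tables of the H2B-GFP cohort, which list 16344 to 16491 genes, 8 of the 10 are described. Hba-a2 and Hbb-bs were not analysed there, and the value of Hbb-b1, another adult beta globin gene, is given beside the others instead. Every gene followed passed the filter on low values in each table that lists it.

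All mice were C57BL/6 and were treated with 2 doses of 20 µg poly(I:C), a double-stranded RNA mimic that raises interferon and induced the deletion. KO mice of the first cohort are labelled only as HIRA KO with conditional deletion in the blood system, and WT mice only as WT, so the alleles of these groups are not given in the labels. In the first cohort, 2500 HSCs or MPPs were collected per sort, 1 week after dosing began, giving 4 KO and 4 WT libraries of each cell type. In the H2B-GFP cohort the mice with the deletion were Mx1-Cre; Hira fl/fl; Rosa26-M2rtTA; TetOP-H2B-GFP, so that doxycycline drove a fluorescent histone that is diluted by cell division. Doxycycline was given for 6 weeks in drinking water (at 2 mg/ml, sweetened with sucrose at 10 mg/ml) and then stopped, poly(I:C) was given, and cells were taken 17 days after doxycycline ended and 15 days after the last dose. HSCs and MPPs were then sorted into GFP-high cells, which had kept the label, and GFP-low cells, which had diluted it, with 3 KO and 3 WT libraries in each of the 4 populations. The study's design text calls the replicates biological. The labels do not say whether libraries of different populations came from the same mice, so the 6 populations may not be independent. Mx1-Cre is switched on by interferon in many cell types, and the labels give neither the share of deleted cells nor the surface markers of the gates.

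Values are FPKM, fragment counts scaled for gene length and library depth. Libraries of the first cohort held 18251979 to 32480050 reads on genes, and the H2B-GFP libraries 5818909 to 9569278 reads, as recovered from the steps of the values. Levels were scaled by the authors within each table, so levels are compared within a table. Hira itself did not separate the groups in any of the 6 populations. It averaged 1.11 ± 0.275 FPKM in KO HSCs and 1.25 ± 0.362 FPKM in WT HSCs (SD, n = 4 each), with adjusted p from 0.692 to 0.965 over the 6 tables, and the value covers the whole gene while the deleted part is not given, so it checks no label. Genes of stem cells and progenitors, such as Kit, Procr and Cd34, were present in every table, with 9 or 10 of 10 past the filter. The neutrophil gene S100a8 was at 84.2 FPKM or more in all libraries and was highest within its table in KO replicate 3 of the GFP-low HSCs (13429.5 FPKM) and of the GFP-high MPPs (11256 FPKM), which are treated below as libraries that stand apart. WT replicate 1 of the MPPs, with the lowest values of that table for all 6 non-globin genes, and KO replicate 3 of the GFP-low MPPs, with the lowest Hba-a1 and the highest values of all 6 non-globin genes in that table, are treated likewise. WT replicate 1 of the HSCs was the lowest of its table for Rhag, Tspo2, Ermap, Car1 and Car2 but not for Aqp1, and is not treated so.

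Haemoglobin joins 2 kinds of globin chain, alpha from the Hba genes and beta from the Hbb genes, and these genes are switched on strongly late in red cell development, so that globin RNA fills reticulocytes. Membrane and enzyme genes of the lineage are read earlier, in erythroid progenitors, under GATA1 and KLF1. RHAG is a channel for ammonium and gases in the Rh complex, AQP1 is a water channel, TSPO2 is an erythroid relative of the translocator protein that handles cholesterol, and ERMAP is a surface protein that carries the Scianna blood group in humans. Carbonic anhydrases, encoded by Car1 and Car2, interconvert CO2 and bicarbonate, and Car2 is also read in other haematopoietic cells.

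On GRCm38, Hba-a1 lies on chromosome 11 (32283511 to 32284465, plus strand) and Hba-a2 beside it (32296489 to 32297298, plus strand). Hbb-bs (103826534 to 103828096) and Hbb-bt (103812524 to 103813996) lie on the minus strand of chromosome 7. Rhag (40811126 to 40840754, plus strand) and Tspo2 (48447907 to 48451522, minus strand) are on chromosome 17, Aqp1 is on chromosome 6 (55336432 to 55348555, plus strand) and Ermap on chromosome 4 (119175457 to 119190011, minus strand). Car1 (14766216 to 14808368, minus strand) and Car2 (14886273 to 14900770, plus strand) are neighbours on chromosome 3. All are protein-coding in GENCODE.

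The 250 bases before the RefSeq start (build GRCm38.p6) are shown for the 3 membrane genes that passed the test in any population, Rhag, Tspo2 and Aqp1, and for Hba-a2 as a globin whose groups overlapped. Of the Rhag and Tspo2 windows, 23 and 21 bases lie inside the GENCODE gene. Capitals mark the letters AGATAA or TGATAA, a motif of GATA factors, and CCNCNCCC, a motif of Krüppel-like factors, on either strand. The windows, read 5′ to 3′ along the gene, are Rhag at chr17:40810899-40811148 (plus strand), Tspo2 at chr17:48451502-48451751 (minus), Aqp1 at chr6:55336049-55336298 (plus) and Hba-a2 at chr11:32296242-32296491 (plus).
Rhag: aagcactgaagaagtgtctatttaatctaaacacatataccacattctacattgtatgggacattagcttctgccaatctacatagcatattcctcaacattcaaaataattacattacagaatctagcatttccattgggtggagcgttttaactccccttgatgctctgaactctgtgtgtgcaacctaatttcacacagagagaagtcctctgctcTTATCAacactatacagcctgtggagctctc
Tspo2: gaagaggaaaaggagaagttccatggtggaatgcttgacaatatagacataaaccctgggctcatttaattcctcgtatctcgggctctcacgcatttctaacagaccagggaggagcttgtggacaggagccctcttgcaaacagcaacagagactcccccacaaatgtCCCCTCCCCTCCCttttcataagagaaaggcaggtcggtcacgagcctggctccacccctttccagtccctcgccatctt
Aqp1: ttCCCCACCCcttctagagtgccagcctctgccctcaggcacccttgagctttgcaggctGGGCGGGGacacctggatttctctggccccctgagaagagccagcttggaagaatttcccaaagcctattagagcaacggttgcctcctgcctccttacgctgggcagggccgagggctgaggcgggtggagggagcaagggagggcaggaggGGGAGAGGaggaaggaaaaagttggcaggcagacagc
Hba-a2: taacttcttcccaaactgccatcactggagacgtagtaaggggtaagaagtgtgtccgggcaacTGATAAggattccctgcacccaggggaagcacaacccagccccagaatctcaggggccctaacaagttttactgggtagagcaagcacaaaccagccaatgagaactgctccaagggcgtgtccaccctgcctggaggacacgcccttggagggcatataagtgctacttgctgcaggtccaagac
Rhag has 1 GATA match that begins 31 bases before the start, on the reverse strand, and Hba-a2 has 1 that begins 186 bases before it. Tspo2 has 2 overlapping CCNCNCCC matches, and Aqp1 has 3 such matches. RefSeq windows were found for 8 of the 10 genes: 5 of the 8 hold the GATA letters and 4 of the 8 the CCNCNCCC letters, against 16.6% and 45.9% of 32851 windows of the same length. Either motif is in 8 of 8, against 58.0% of all windows, and both are in the window of Hbb-bs. Shifted by 3 bases, the windows of Hba-a1 and Hba-a2 are identical over 247 of 247 bases, and reads of such near-identical copies may have been shared between genes, so the 2 alpha genes are not independent measurements. Their shared GATA match is counted for both in the 5 of 8, so the 8 windows are not independent either.

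Across populations, all calls among the 10 genes were of non-globin genes and were higher in KO libraries. A gene was called at a limma adjusted p under 0.05 over all genes tested. In HSCs, 1 of 10 genes was called (Tspo2, higher in KO), where 0.124% of 13717 tested genes were called. Every KO library lay above every WT library for 4 of the 10 (Rhag, Tspo2, Ermap and Car2), against 2.81% of tested genes. The median log2 difference, KO minus WT, was 1.04 over the 6 non-globin genes and -0.41 over the 4 globins, against -0.0008 over all genes tested. In MPPs, limma called 0 of 10, with 6 at an unadjusted p under 0.05, where 0.108% of 13916 genes were called. Of those 13916 genes, 2305 had an unadjusted p under 0.05. Rhag and Car2 did not overlap between groups, KO being higher, against 5.08% of genes. Medians in MPPs were 1.18 over the non-globin genes and 0.72 over the globins, and 0.69 and -0.35 without WT replicate 1.

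**Figure D1:**
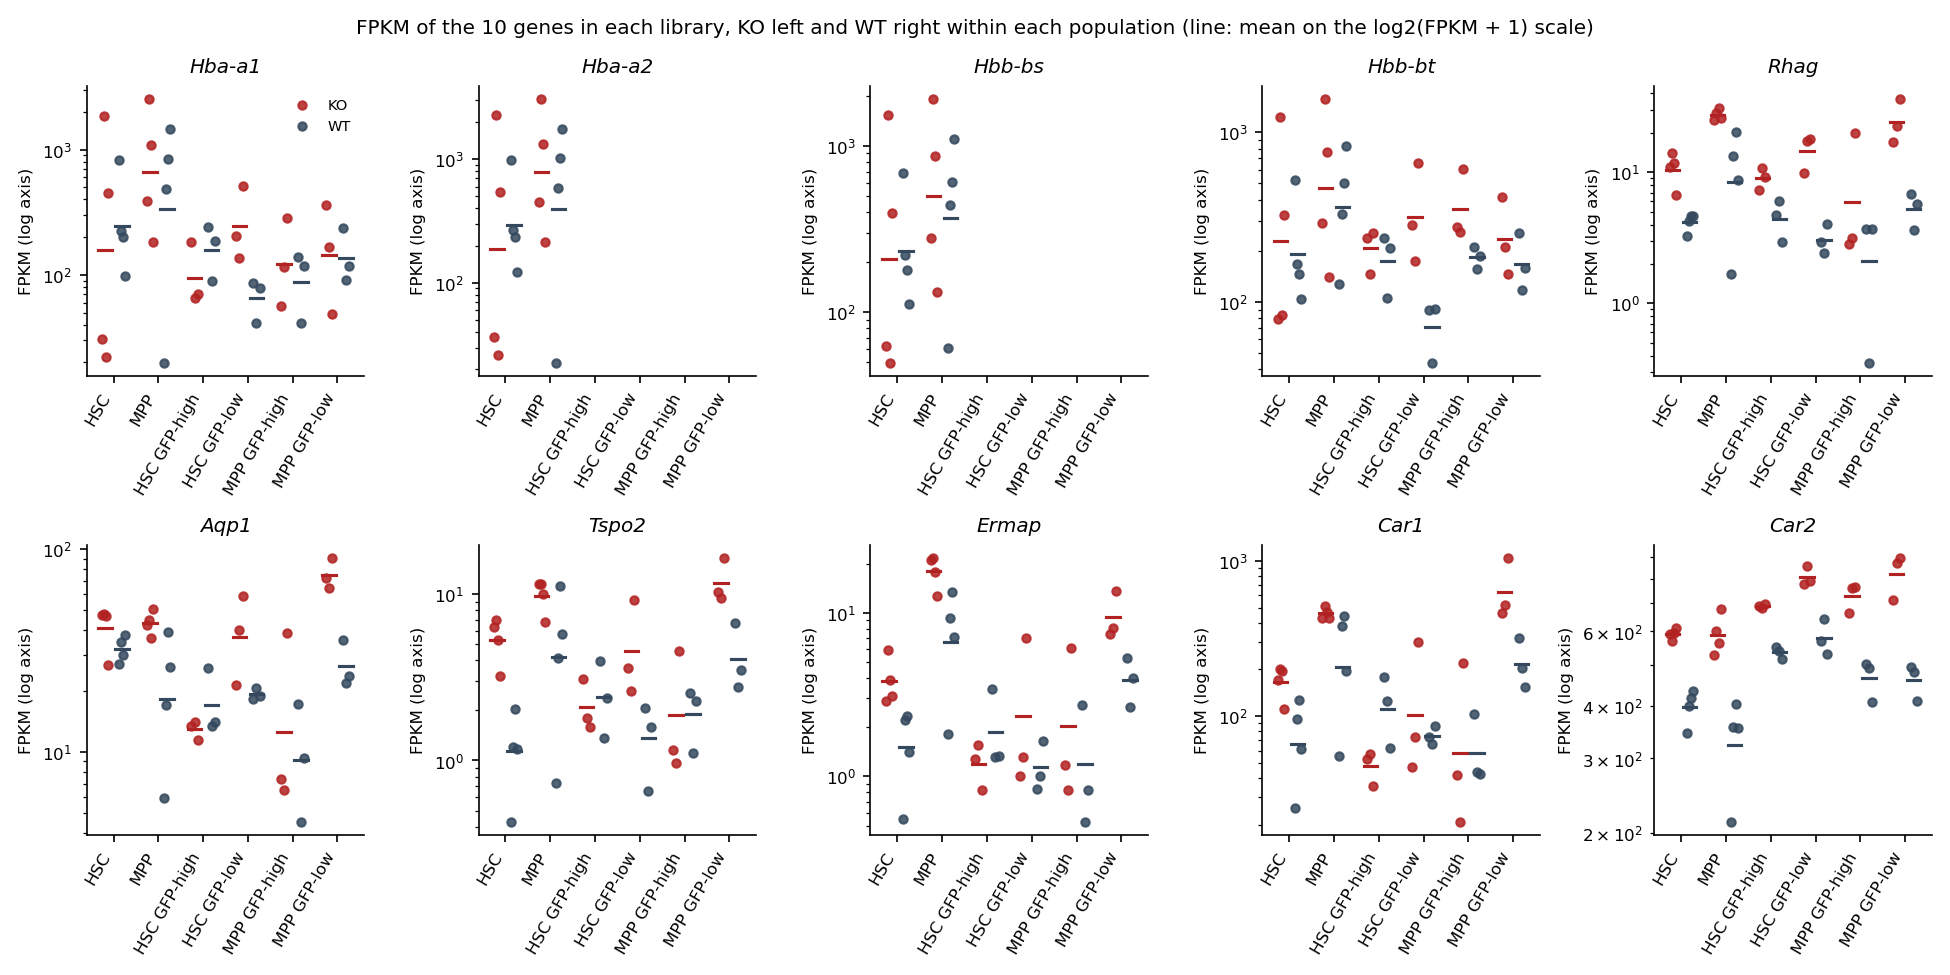
FPKM of each gene (log axis) in every library of the 6 populations, with KO libraries in red on the left and WT libraries in dark blue on the right, and a line at the mean on the log2(FPKM + 1) scale. KO and WT values of Hba-a1 overlap in 5 of 6 populations, GFP-low HSCs being the exception, while all KO values of Car2 lie above the WT values of the same population in 6 of 6; heights are comparable within a population and not between them.

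In the GFP-sorted cells the calls came from GFP-low MPPs. There Rhag, Aqp1 and Car2 were called higher in KO, 3 of 8 genes, where 0.32% of 10621 tested genes were called. For all 6 non-globin genes every KO library lay above every WT library, against 9.73% of tested genes, and for 0 of 2 globins. The medians were 1.40 over the non-globin genes and 0.27 over the globins, and 1.14 and 0.82 without KO replicate 3. Without KO replicate 2, KO replicate 3, WT replicate 2 or WT replicate 3, 0 of the 3 calls held, with adjusted p up to 0.232 over all settings tried. In GFP-low HSCs limma called 0 of 8, with 6 at an unadjusted p under 0.05, and 0% of 10705 genes, with 917 at an unadjusted p under 0.05. For 6 of the 8 the groups did not overlap, KO being higher, against 7.67% of tested genes. These were the globins Hba-a1 and Hbb-bt with Rhag, Aqp1, Tspo2 and Car2.

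GFP-high cells showed fewer separations. In GFP-high HSCs limma called 0 of 8, with 3 at an unadjusted p under 0.05, and 0.0276% of 10850 genes, with 1124 at an unadjusted p under 0.05. Rhag and Car2 were higher in every KO library, against 8.61% of genes, and Car1 was lower in every KO library, against 7.47%. In GFP-high MPPs limma called 0 of 8, with 2 at an unadjusted p under 0.05, and 0% of 10789 genes, with 765 at an unadjusted p under 0.05. Hbb-bt and Car2 were higher in every KO library, against 6.74% of genes. The smallest p that an exact permutation of labels can give is 0.0286 with 4 against 4 libraries and 0.1 with 3 against 3.

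**Figure D2:**
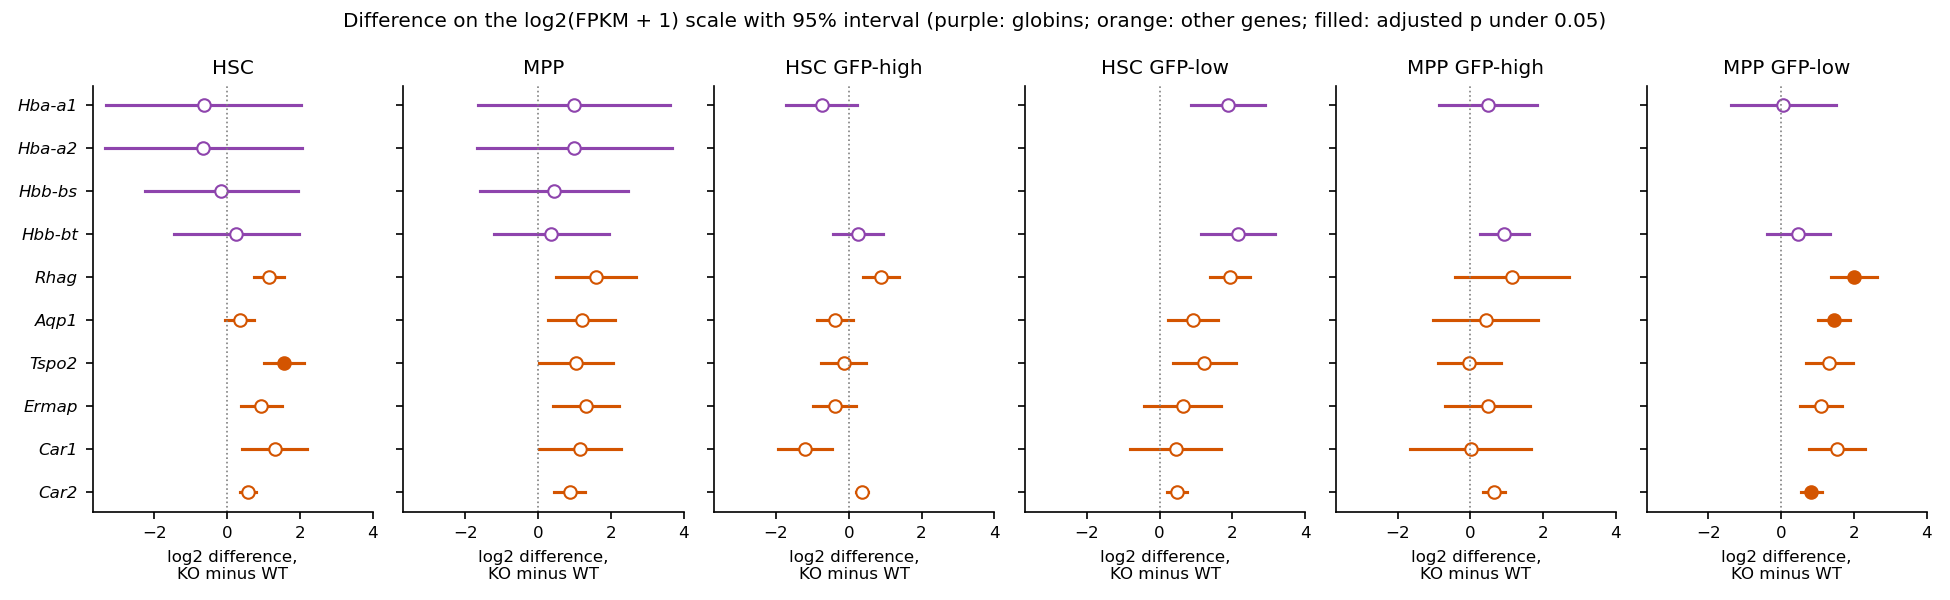
Difference KO minus WT on the log2(FPKM + 1) scale for each gene (rows) in each population (panels), with its 95% interval from limma; purple marks globins, orange the other genes, and filled points an adjusted p under 0.05. The interval of Hba-a1 spans -3.33 to 2.04 in HSCs, and the interval of Car2 lies above 0 in all 6 panels.

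The globins, which build the protein chains of haemoglobin, varied many-fold between libraries of 1 group. In HSCs, Hba-a1 was at 30.9, 1842, 22.2 and 453 FPKM in KO libraries and at 827, 223, 202 and 97.7 FPKM in WT libraries. The KO libraries hold both the highest and the 2 lowest values, and the groups overlap. In MPPs it was at 392, 2527, 1096 and 181 FPKM in KO libraries and at 19.7, 482, 842 and 1469 FPKM in WT libraries, again overlapping, with WT replicate 1 far below the rest. The log2 difference was -0.65 in HSCs (95% interval -3.33 to 2.04, limma adjusted p = 0.880) and 1.00 in MPPs (-1.64 to 3.64, adjusted p = 0.723). Those intervals allow changes of several fold in either direction.

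Hba-a2, the other alpha gene, kept close to 1 multiple of Hba-a1 in all 16 libraries of the first cohort, between 1.14 and 1.25. Hbb-bs, the larger adult beta gene in most libraries, was at 62.2, 1526, 49.3 and 395 FPKM in KO HSCs and at 688, 219, 178 and 111 FPKM in WT HSCs. The libraries stand in the same order as for Hba-a1, and the groups overlap. Its log2 difference was -0.17 in HSCs (adjusted p = 0.966) and 0.44 in MPPs (adjusted p = 0.858). Hbb-bt, the other adult beta gene, averaged 428 ± 543 FPKM in KO HSCs and 234 ± 192 FPKM in WT HSCs (SD, n = 4 each), and the groups overlap.

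In the H2B-GFP cohort the globin groups did not overlap in GFP-low HSCs. There Hba-a1 was at 205, 137 and 517 FPKM in KO libraries and at 86.0, 41.3 and 77.8 FPKM in WT libraries, so the groups do not overlap. The log2 difference was 1.89 (0.87 to 2.90, adjusted p = 0.299), which did not pass the test. Hbb-bt was at 283, 173 and 657 FPKM in KO libraries and at 89.3, 43.5 and 90.8 FPKM in WT libraries (log2 difference 2.15, adjusted p = 0.239), and Hbb-b1 likewise did not overlap (1.79, adjusted p = 0.331). KO replicate 3, the highest for all 3 globins, is also the library with 13429.5 FPKM of S100a8. Without it the log2 differences were 1.35 for Hba-a1 (adjusted p = 0.164) and 1.63 for Hbb-bt (adjusted p = 0.155), and the groups still did not overlap.

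The other GFP-sorted populations gave globin values that overlapped, apart from Hbb-bt in GFP-high MPPs. In GFP-high HSCs, Hba-a1 was at 184, 65.4 and 70.4 FPKM in KO libraries and at 243, 88.9 and 185 FPKM in WT libraries (log2 difference -0.74, adjusted p = 0.597). In GFP-high MPPs it was at 55.9, 116 and 282 FPKM in KO libraries and at 138, 41.0 and 118 FPKM in WT libraries (0.48, adjusted p = 0.915, and -0.12 without KO replicate 3). Both sets overlap. In GFP-low MPPs it was at 358, 167 and 48.5 FPKM in KO libraries and at 238, 91.7 and 118 FPKM in WT libraries (0.06, adjusted p = 0.979, and 0.83 without KO replicate 3). Hbb-bt in GFP-high MPPs was at 276, 258 and 607 FPKM in KO libraries and at 211, 155 and 187 FPKM in WT libraries (0.94, 0.26 to 1.62, adjusted p = 0.548). The highest KO value is again from the library with 11256 FPKM of S100a8, and without it the difference was 0.54 (adjusted p = 0.246).

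Rhag, the ammonium and gas channel, was separate between the groups in 5 of 6 populations. The share of all genes separate in as many populations was not counted. In HSCs Rhag was at 10.9, 14.0, 11.7 and 6.71 FPKM in KO libraries and at 3.27, 4.28, 4.64 and 4.63 FPKM in WT libraries. No KO library overlapped the WT range, and the log2 difference was 1.15 (0.74 to 1.56, limma adjusted p = 0.0507), just outside the threshold. In MPPs it was at 25.1, 28.4, 30.8 and 25.8 FPKM in KO libraries and at 1.67, 13.2, 20.3 and 8.72 FPKM in WT libraries. The KO libraries lie within 1.23-fold of each other, while the WT libraries spread over 12.2-fold. The log2 difference was 1.60 (0.51 to 2.68, adjusted p = 0.162), and 0.99 without WT replicate 1 (adjusted p = 0.118).

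GFP-sorted cells gave Rhag differences of the same sign. In GFP-high HSCs it was at 7.37, 10.8 and 9.16 FPKM in KO libraries and at 4.76, 6.02 and 2.92 FPKM in WT libraries (log2 difference 0.89, adjusted p = 0.248). In GFP-low HSCs it was at 9.90, 17.3 and 18.1 FPKM in KO libraries and at 2.92, 2.44 and 4.00 FPKM in WT libraries (1.94, adjusted p = 0.0858). Neither set overlaps, and neither passed. In GFP-low MPPs Rhag rose: it was at 17.0, 22.7 and 36.2 FPKM in KO libraries and at 6.86, 3.66 and 5.76 FPKM in WT libraries (2.00, 1.37 to 2.63, adjusted p = 0.0350). GFP-high MPPs were the exception, with 2.83, 3.13 and 20.0 FPKM in KO libraries and 3.71, 0.350 and 3.72 FPKM in WT libraries. There the groups overlap, the lowest WT value rests on 10 reads, and the difference of 1.16 (adjusted p = 0.794) was 0.36 without KO replicate 3.

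High Rhag was seen at both high and low Hba-a1 in HSCs and GFP-low MPPs. In HSCs the 2 KO libraries with the least Hba-a1, at 30.9 and 22.2 FPKM, had 10.9 and 11.7 FPKM of Rhag, above all 4 WT libraries. The WT library with the most Hba-a1, at 827 FPKM, had the least Rhag, at 3.27 FPKM. In GFP-low MPPs the KO library with the most Rhag, at 36.2 FPKM, had the least Hba-a1 of the 6 libraries, at 48.5 FPKM. The ratio of Hba-a1 to Rhag ran over 1.90 to 131 in KO HSCs and 21.1 to 253 in WT HSCs, and over 1.34 to 21.1 in KO GFP-low MPPs and 20.6 to 34.7 in WT GFP-low MPPs.

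**Figure D3:**
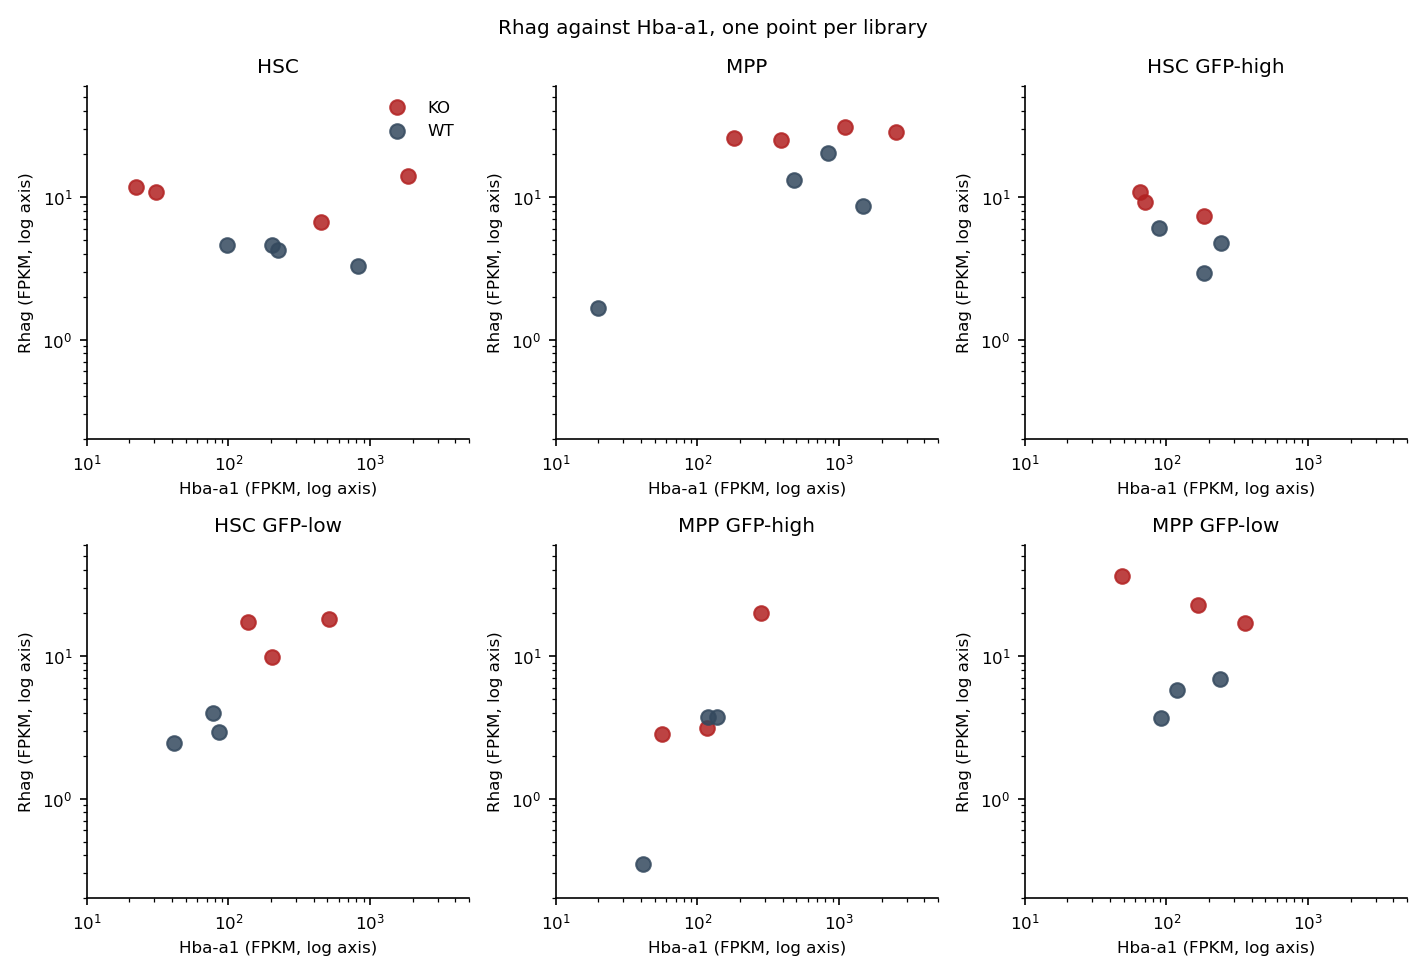
Rhag against Hba-a1 (both FPKM, log axes), 1 point per library, KO in red and WT in dark blue, 1 panel per population. In HSCs and GFP-low MPPs the KO points lie above the WT points in Rhag (6.71 to 14.0 against 3.27 to 4.64 FPKM in HSCs) at both low and high Hba-a1; in GFP-high MPPs 1 KO library is high in both genes.

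Tspo2, which handles cholesterol in erythroid cells, rose in KO HSCs. It was at 6.37, 6.98, 5.26 and 3.22 FPKM in KO libraries and at 0.426, 1.21, 2.03 and 1.17 FPKM in WT libraries. The groups do not overlap, and the log2 difference was 1.56 (1.02 to 2.10, limma adjusted p = 0.0473). The call was lost without KO replicate 1, 2 or 3 or WT replicate 1, 2 or 4, and under each other scaling or filter tried, with adjusted p from 0.0175 to 0.214 and a difference of at least 1.36 throughout. In GFP-low MPPs Tspo2 was at 10.3, 9.43 and 16.4 FPKM in KO libraries and at 6.73, 2.75 and 3.48 FPKM in WT libraries, without overlap (1.33, adjusted p = 0.112). In GFP-low HSCs it was also separate (1.23, adjusted p = 0.455, and 0.79 without KO replicate 3). It overlapped in MPPs (1.05, adjusted p = 0.292), GFP-high HSCs (-0.14, adjusted p = 0.907) and GFP-high MPPs (-0.03, adjusted p = 0.994). Without WT replicate 1 the MPP value was 0.52, and without KO replicate 3 that of GFP-high MPPs was -0.50.

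Aqp1, the water channel, rose in KO GFP-low MPPs. It was at 72.2, 64.3 and 90.3 FPKM in KO libraries and at 35.6, 22.0 and 23.8 FPKM in WT libraries, with no overlap. The log2 difference was 1.46 (1.02 to 1.91, limma adjusted p = 0.0350). In GFP-low HSCs it was at 21.4, 40.2 and 59.1 FPKM in KO libraries and at 18.3, 20.6 and 18.9 FPKM in WT libraries, also without overlap (0.91, adjusted p = 0.478, and 0.58 without KO replicate 3). In HSCs, 3 KO libraries lay between 46.6 and 48.0 FPKM and the other at 26.7 FPKM, against 27.2 to 37.9 FPKM in WT libraries (0.34, adjusted p = 0.559). The groups overlapped in MPPs (1.20, adjusted p = 0.205), GFP-high HSCs (-0.37, adjusted p = 0.605) and GFP-high MPPs (0.42, adjusted p = 0.943). The MPP value was 0.71 without WT replicate 1, and that of GFP-high MPPs turned to -0.35 without KO replicate 3.

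Ermap, the Scianna antigen carrier, was separate between the groups in 2 of 6 populations and passed the test in none, by limma. In HSCs it was at 2.90, 5.90, 3.91 and 3.09 FPKM in KO libraries and at 0.551, 2.23, 2.34 and 1.41 FPKM in WT libraries, with no overlap (log2 difference 0.94, adjusted p = 0.230). In GFP-low MPPs it was at 7.47, 8.09 and 13.7 FPKM in KO libraries and at 5.31, 2.67 and 4.00 FPKM in WT libraries, again with no overlap (1.10, adjusted p = 0.136). In MPPs it averaged 18.3 ± 4.06 FPKM in KO libraries and 7.89 ± 4.79 FPKM in WT libraries (SD, n = 4 each), with 1 WT library above the lowest KO library (1.31, adjusted p = 0.164). Differences in GFP-high HSCs, GFP-low HSCs and GFP-high MPPs were -0.39, 0.64 and 0.48, and their groups overlapped. The 0.64 of GFP-low HSCs was 0.01 without KO replicate 3, and the 1.31 of MPPs was 0.83 without WT replicate 1.

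Car2, which interconverts CO2 and bicarbonate, was the one gene of the 10 whose KO libraries lay above all WT libraries in each of the 6 populations, with small spread. The share of all genes that did so in all 6 was not counted. Single populations had shares of 2.81% to 9.73%. In HSCs Car2 was at 591, 570, 593 and 612 FPKM in KO libraries and at 344, 400, 417 and 433 FPKM in WT libraries. The log2 difference was 0.57 (0.36 to 0.79, limma adjusted p = 0.0549), just outside the threshold. In MPPs it was at 527, 601, 564 and 676 FPKM in KO libraries and at 212, 357, 404 and 354 FPKM in WT libraries (0.87, adjusted p = 0.0748). WT replicate 1 is the low one there, and the difference was 0.67 without it (adjusted p = 0.116).

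In GFP-high HSCs, Car2 was at 688, 680 and 698 FPKM in KO libraries and at 553, 540 and 515 FPKM in WT libraries (0.36, adjusted p = 0.200). In GFP-low HSCs it was at 779, 855 and 790 FPKM in KO libraries and at 570, 641 and 530 FPKM in WT libraries (0.48, adjusted p = 0.324). In GFP-high MPPs it was at 665, 760 and 765 FPKM in KO libraries and at 502, 492 and 408 FPKM in WT libraries (0.64, adjusted p = 0.350). None of these 3 passed, although no libraries overlap and each interval lies above 0 (0.19 to 0.54, 0.21 to 0.75 and 0.34 to 0.95). In GFP-low MPPs Car2 rose: it was at 712, 870 and 895 FPKM in KO libraries and at 494, 482 and 410 FPKM in WT libraries (0.83, 0.54 to 1.12, adjusted p = 0.0447). Within each KO group the highest Car2 value was at most 1.28 times the lowest.

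Car1, the other carbonic anhydrase, varied more and changed sign. In HSCs it was at 170, 202, 194 and 111 FPKM in KO libraries and at 25.5, 96.1, 128 and 61.4 FPKM in WT libraries, so 1 WT library reached into the KO range (log2 difference 1.30, 0.42 to 2.18, adjusted p = 0.284). In GFP-low MPPs it was at 460, 518 and 1040 FPKM in KO libraries and at 320, 205 and 154 FPKM in WT libraries, without overlap (1.54, adjusted p = 0.114). In GFP-high HSCs the order was the other way, with 52.8, 57.4 and 35.6 FPKM in KO libraries and 178, 125 and 62.0 FPKM in WT libraries, also without overlap (-1.21, adjusted p = 0.293). None of these 3 differences passed the test. With 1 library left out, the HSC difference of Car1 ran from 0.85 to 1.61. In MPPs, GFP-low HSCs and GFP-high MPPs the groups overlapped (1.15, 0.44 and 0.0056). The MPP difference was 0.53 without WT replicate 1, and that of GFP-high MPPs was -0.95 without KO replicate 3. In GFP-low HSCs it was -0.34 without KO replicate 3, which held 301 FPKM against 47.4 and 73.2 FPKM in the other KO libraries.

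By group means in KO HSCs, the order of levels per length was Hba-a2 (720 FPKM), Car2 (592), Hba-a1 (587), Hbb-bs (508), Hbb-bt (428), Car1 (169), Aqp1 (42.1), Rhag (10.8), Tspo2 (5.46) and Ermap (3.95). In WT HSCs it was Hba-a2 (403 FPKM), Car2 (399), Hba-a1 (337), Hbb-bs (299), Hbb-bt (234), Car1 (77.6), Aqp1 (32.5), Rhag (4.20), Ermap (1.63) and Tspo2 (1.21). Across libraries the ranges of the globins and Car2 overlapped in either group, and so did those of Ermap and Tspo2. Within libraries, Hba-a2 was above Hba-a1 in each. Tspo2 was above Ermap in each KO HSC library and below it in each WT HSC library. These orders were not tested. All globin genes together made up 0.0305% to 1.12% of the summed FPKM of KO HSC libraries and 0.0773% to 0.479% of WT HSC libraries.

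The ratio of the 2 adult beta genes was highest in the first-cohort libraries with the least globin of their table. In HSCs, Hbb-bt stood at 1.70 and 1.28 times Hbb-bs in KO replicates 3 and 1, which had the least globin of that table, at 182 and 209 FPKM of all globins. In MPPs it stood at 2.09 times Hbb-bs in WT replicate 1, which had the least of that table, at 231 FPKM. In the other libraries of both tables the ratio lay between 0.746 and 1.06. In the H2B-GFP cohort the ratio of Hbb-bt to Hbb-b1 ran from 0.302 to 1.71, and in GFP-high HSCs it was 0.416, 0.753 and 1.19 in KO libraries and 0.302, 0.424 and 0.375 in WT libraries. In GFP-low HSCs the libraries with more globin had the higher ratios. KO libraries there held 683 to 2690 FPKM of all globins at ratios of 0.424 to 0.466. WT libraries held 224 to 433 FPKM at ratios of 0.312 to 0.367. Reads can be shared between these close copies, and the part of that in the ratios was not tested.

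**Figure D4:**
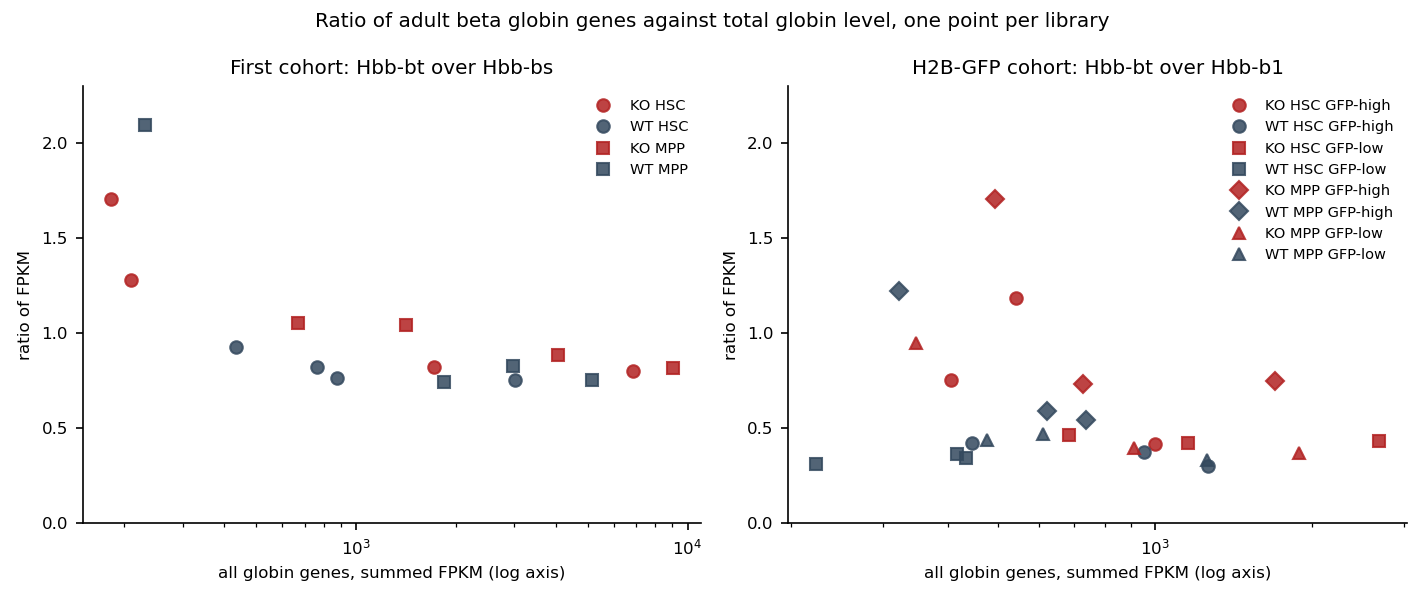
Ratio of the FPKM of Hbb-bt to that of Hbb-bs (first cohort, left) or Hbb-b1 (H2B-GFP cohort, right) against the summed FPKM of all globin genes (log axis), 1 point per library, KO in red and WT in dark blue. The horizontal axis is to be read within a population. The 2 HSC libraries and the 1 MPP library with the least globin of their tables have ratios of 1.28 to 2.09 and the other libraries of the first cohort lie at or below 1.06; in the H2B-GFP cohort libraries of GFP-low HSCs lie between 0.312 and 0.466.

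Library to library variation was then compared after taking off each group's mean, by permuting libraries within groups (100000 permutations, 2-sided, 10 pairs, Benjamini-Hochberg adjusted). Over 16 libraries of the first cohort, Hbb-bs varied with Hba-a1 (Pearson r = 0.986, Spearman rho = 0.991, both permutation p = 1e-05, the smallest the permutations can give, adjusted p = 5e-05 and 6.7e-05), with r of 0.975 and 0.996 within the tables. It varied likewise with Hbb-bt (r = 0.985, rho = 0.971, both permutation p = 2e-05, adjusted p = 5e-05 and 6.7e-05) and with Alas2, the erythroid enzyme that starts haem synthesis (r = 0.956, rho = 0.965, permutation p = 1e-05 and 5e-05, adjusted p = 5e-05 and 0.00012). Without the 2 farthest libraries these were 0.984, 0.989 and 0.941. For Car2 the relation with Hbb-bs was not detected (r = 0.242, rho = 0.059, permutation p = 0.43 and 0.84, adjusted p = 0.54 and 0.90, and r = -0.511 and 0.552 within tables). Nor was it for Car1 (r = 0.198, rho = 0.174, permutation p = 0.49 and 0.54, adjusted p = 0.55 and 0.68, and r = -0.175 without the 2 farthest libraries).

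A relation of Hbb-bs with the markers of other cells compared, S100a8 and C1qb, was not detected in the 16 libraries of the first cohort, and none was tested in the H2B-GFP cohort. S100a8 gave r = 0.269 with Hbb-bs (rho = 0.312, permutation p = 0.29 and 0.24, adjusted p = 0.42 and 0.35, within tables -0.313 and 0.831), and the macrophage gene C1qb r = 0.064 (rho = 0.035, permutation p = 0.81 and 0.90, adjusted p = 0.81 and 0.90). Over all 40 libraries, Car1 varied with Klf1, the transcription factor of erythroid progenitors (r = 0.868, rho = 0.816, both permutation p = 2e-05, adjusted p = 5e-05 and 6.7e-05), with r of 0.801 to 0.931 within the 6 tables and 0.801 without the 2 farthest libraries. Car1 and Car2 gave r = 0.539 and rho = 0.383 (permutation p = 0.0082 and 0.033, adjusted p = 0.016 and 0.067), r was 0.408 without the 2 farthest libraries and ran from -0.193 to 0.894 within tables, and Car2 with Klf1 gave r = 0.465 and rho = 0.273 (permutation p = 0.058 and 0.15, adjusted p = 0.096 and 0.25). Of 9242 genes compared, the 10 genes of the set left out, the 5 most like Hbb-bs were Alas2 (r = 0.956), Trappc2l (0.879), Ap2a2 (0.818), Metap2 (0.794) and Zfp687 (0.775) over 16 libraries. The 5 most like Car2 were Gfi1b (0.776), Sept4 (0.765), Usp47 (0.703), Pde6d (0.697) and Optn (0.690) over 40 libraries.

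Other genes of the red cell were read from lists. Of 20 genes of mature red cells and reticulocytes, such as the membrane anion exchanger Slc4a1 (band 3), 12 to 16 were tested in a table and none passed in any, by limma. Their median log2 difference was 0.22 in HSCs, 0.43 in MPPs, -0.13 and 0.54 in the GFP-high and GFP-low HSCs, and 0.19 and 0.37 in the GFP-high and GFP-low MPPs, against -0.0042 to 0.0043 over all genes tested. KO libraries lay above all WT libraries for 4 of 15 genes in MPPs and 5 of 16 in GFP-low MPPs, where no globin did. The shares of all tested genes there were 5.08% and 9.73%. The counts were 1 of 12 in HSCs, 7 of 14 in GFP-low HSCs, 0 of 14 in GFP-high HSCs and 1 of 14 in GFP-high MPPs. There the shares were 2.81%, 7.67%, 8.61% and 6.74%. Alas2 followed the globins: in KO HSCs it was at 0.628, 7.52, 0.153 and 2.09 FPKM and in WT HSCs at 2.08, 1.17, 1.29 and 0.703 FPKM, which overlap (0.23, adjusted p = 0.895). In KO GFP-low MPPs Slc4a1 was at 12.5, 8.06 and 0.448 FPKM and in WT GFP-low MPPs at 13.2, 5.25 and 5.70 FPKM (-0.58, adjusted p = 0.774), with KO replicate 3 the lowest, as for the globins. In GFP-low HSCs, Alas2 (1.56, adjusted p = 0.516) and Slc4a1 (1.76, adjusted p = 0.299) were each higher in every KO library, as the globins were. Of the 9 genes of haem synthesis none passed in any table. Their median was -0.03 in HSCs, 0.43 in MPPs, -0.14 and 0.21 in GFP-high and GFP-low HSCs, and 0.185 and 0.22 in GFP-high and GFP-low MPPs. Their sums did not overlap in MPPs (256 to 307 FPKM in KO, 133 to 228 FPKM in WT). Nor did they in GFP-low HSCs (179 to 281 and 157 to 169 FPKM) or GFP-low MPPs (245 to 269 and 179 to 216 FPKM). In the remaining populations the sums overlapped.

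Among 11 erythroid regulators and receptors, 2 passed, both in GFP-low MPPs and both higher in KO. Gata1, a transcription factor of the lineage, was at 19.9, 20.6 and 33.2 FPKM in KO libraries and at 9.20, 6.40 and 6.06 FPKM in WT libraries (1.62, adjusted p = 0.0350). Epor, the erythropoietin receptor, was at 18.3, 18.9 and 23.2 FPKM in KO libraries and at 8.40, 6.76 and 7.14 FPKM in WT libraries (1.32, adjusted p = 0.0228). Klf1 in the same cells did not overlap (1.45, adjusted p = 0.0905). It was at 19.6, 24.4, 22.3 and 16.5 FPKM in KO HSCs and at 8.40, 12.3, 12.3 and 7.96 FPKM in WT HSCs, which do not overlap (0.96, adjusted p = 0.0549). Epor in HSCs overlapped (-0.07, adjusted p = 0.864), and so did Gata1 (0.20, adjusted p = 0.685). The list's median was 0.21 in HSCs, 0.29 in MPPs, -0.02 and 0.47 in the GFP-high and GFP-low HSCs, and 0.15 and 0.28 in the GFP-high and GFP-low MPPs.

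Of 14 other carbonic anhydrases 3 to 5 were tested in a table, and of 12 other aquaporins and ammonium channels 2 or 3, and none passed in any, by limma. Their medians lay between -0.08 and 0.12 and between -0.22 and -0.04 over the 6 populations. Of 9 other globins, embryonic ones included, 0 were tested in the first cohort, where their summed level was 0 to 4.29 FPKM.

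Other lineages were followed beside these. Summed over 8 neutrophil genes, levels in GFP-low HSCs were 2063 to 28879 FPKM in KO libraries and 3625 to 3961 FPKM in WT libraries, and in GFP-high MPPs 3868 to 23941 FPKM in KO libraries and 4175 to 5687 FPKM in WT libraries, with medians of 0.98 and 0.92 for KO minus WT. In GFP-low MPPs, where Rhag and Aqp1 rose, the same sum was 3722 to 9820 FPKM in KO libraries and 4569 to 8700 FPKM in WT libraries, with a median of -0.04. The 8 macrophage genes summed to 25.2 to 32.2 FPKM in KO HSCs and 16.3 to 27.4 FPKM in WT HSCs, and to 8.52 to 44.8 FPKM in KO GFP-low MPPs and 11.0 to 25.7 FPKM in WT GFP-low MPPs, with none called. C1qb was at 9.68 to 12.3 FPKM in KO HSCs and 3.64 to 7.69 FPKM in WT HSCs (0.82, adjusted p = 0.130). Of 6 megakaryocyte and platelet genes Ppbp was called in HSCs (17.1 ± 3.57 FPKM in KO, 6.76 ± 1.29 FPKM in WT, SD, n = 4 each, adjusted p = 0.0275). The genes of that list summed to 1264 to 1725 FPKM in KO HSCs and 946.5 to 1165 FPKM in WT HSCs. In GFP-high HSCs the sum was 125 to 190 FPKM in KO libraries and 101 to 115 FPKM in WT libraries. In GFP-low HSCs it was 418 to 472 FPKM and 166 to 268 FPKM. The list's medians were 0.32, 0.63 and 0.76 in those populations, and -0.17, 0.47 and 0.13 in MPPs, GFP-high MPPs and GFP-low MPPs. Of 6 mast cell and basophil genes Cpa3 was called in MPPs (16.0 ± 3.04 FPKM in KO, 5.39 ± 0.83 FPKM in WT, adjusted p = 0.0161). Lymphoid and stem cell genes had none called. In MPPs, 8 of 9 tested genes of stem cells and progenitors were lower in KO, with a median of -0.26. That list summed to 404 to 461 FPKM in KO MPPs and 476 to 536 FPKM in WT MPPs, which do not overlap. Its median was -0.14 in GFP-low MPPs and lay between -0.08 and 0.10 in the remaining populations. In bulk RNA, more cells of a type and more RNA per cell cannot be told apart, and the part of these other cells in the results was not tested.

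**Figure D5:**
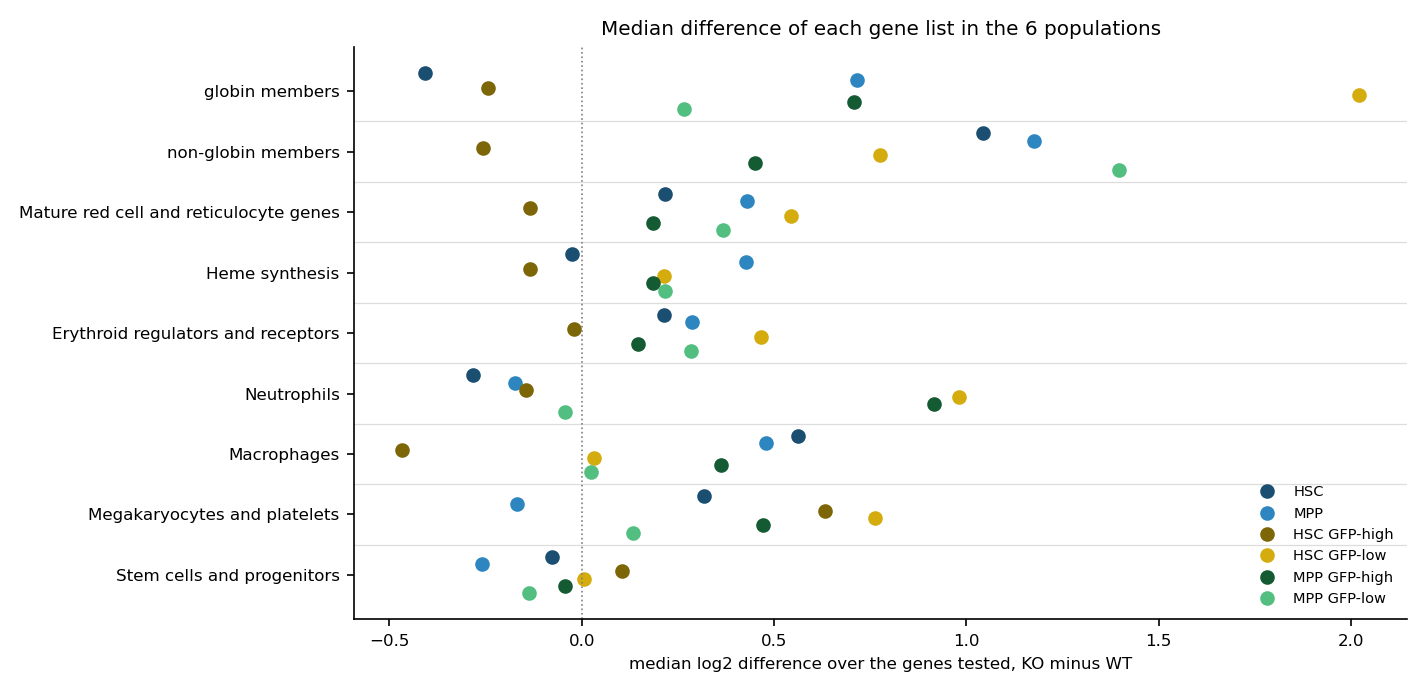
Median log2 difference (KO minus WT, horizontal axis) over the tested genes of each list (rows), 1 point per population. The non-globin genes have medians of 0.45 to 1.40 in 5 populations and -0.26 in GFP-high HSCs. Without KO replicate 3 the 0.78 of GFP-low HSCs is 0.54. Without KO replicate 3 of the GFP-high MPPs the 0.45 there is -0.35, with Ermap not included because it no longer passes the filter. The globins run from -0.41 to 2.02, and the neutrophil list lies at 0.92 and 0.98 in GFP-high MPPs and GFP-low HSCs.

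Whether the KO effect differed between populations was tested as a difference of differences in limma. No term for the mouse was fitted, so libraries of different populations were treated as independent even if they shared mice. Between MPPs and HSCs 0 of 10 genes were called and 0 had an unadjusted p under 0.05, where 0.0346% of 14447 genes were called. Of those 14447 genes, 1151 had an unadjusted p under 0.05. Between GFP-low and GFP-high HSCs 0 of 8 were called, with 6 at an unadjusted p under 0.05, where 0% of 11037 genes were called and 377 had an unadjusted p under 0.05. The effect was larger in GFP-low than in GFP-high HSCs for all 8. On the log2 scale it was larger by 2.63 for Hba-a1 (1.05 to 4.20), 1.90 for Hbb-bt (0.53 to 3.27) and 1.65 for Car1 (0.02 to 3.27). For Tspo2 it was 1.37 (0.22 to 2.52), for Aqp1 1.29 (0.37 to 2.20) and for Rhag 1.05 (0.28 to 1.82). For Ermap it was 1.03 (-0.28 to 2.34) and for Car2 0.12 (-0.16 to 0.39). All had a limma adjusted p of 0.999. With 1 library left out, the values of Car1 and Tspo2 fell as low as 0.87 and 0.93. Between GFP-low and GFP-high MPPs 0 of 8 were called, with 1 (Tspo2) at an unadjusted p under 0.05, where 0.00911% of 10981 genes were called. Of those 10981 genes, 306 had an unadjusted p under 0.05. The effect was larger in GFP-low MPPs for 6 of the 8. The effect on Rhag was larger by 0.85 (-1.02 to 2.71) and on Tspo2 by 1.35 (0.18 to 2.53), both with an adjusted p of 0.999. Both globins went the other way, with -0.42 for Hba-a1 (-2.61 to 1.77) and -0.47 for Hbb-bt (-1.67 to 0.74). The calls in GFP-low MPPs are therefore not shown to be absent from GFP-high MPPs.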

How the data were processed

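Polyadenylated RNA of sorted cells was amplified with a SMART-Seq2 kit and made into libraries with Nextera XT, per the labels' protocols. The authors deposited FPKM per gene, 1 table per population; STAR, DESeq2, HOMER and the mouse build mm10 are named in the submitters' processing notes, without roles or versions. Strandedness and the treatment of reads shared by near-identical genes are not given in the sources used here. Steps in the FPKM values gave whole reads for over 99.99% of genes (tolerance 0.01), from which depth was taken.

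Groups follow the labels. KO and WT were compared within each table with limma 3.58.1 (R 4.3.3) on log2(FPKM + 1), which understates changes of low genes, over genes at 1 FPKM or more in at least 4 libraries (3 in the H2B-GFP cohort), with Benjamini-Hochberg adjustment over all genes tested and a threshold of 0.05. Scripts were tested on simulated data. Alternatives were a pseudocount of 0.1, no filter, rescaling, a replicate block, array quality weights and leaving out each library; counts without the libraries that stand apart were added after seeing the data. The genes and lists were chosen with earlier results of these data known. Named besides the 10 genes are list genes past the test, 8 genes given whatever their values, of which 1 is not reported here, and the 5 genes most like Hbb-bs and Car2, compared over the libraries that list them.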

Additional observations from a re-analysis of the deposited data

Results flagged for a closer look

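In WT HSCs, replicate 1 stood apart from the other 3 libraries for Hba-a2, at 986 FPKM, and for Hbb-bt, at 519 FPKM. In KO HSCs, replicate 4 stood apart on the low side for Aqp1, at 26.7 FPKM. In each case the gap to the nearest library exceeded Dixon's critical value for 4 libraries, which happened in 3 of 40 groups tested, and chance gives about 5% of groups. WT replicate 1 was also the highest WT HSC library for Hba-a1 and Hbb-bs, which were not flagged. Globins vary together, so the 40 groups are not independent and the 5% is only a rough guide. Car1 was lower in every KO library of the GFP-high HSCs (log2 difference -1.21) and higher in every KO library of the GFP-low MPPs (1.54), and the difference between these 2 effects was not tested.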

How the results depend on the processing

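In HSCs 1 of the 10 genes was called, against 0 with a pseudocount of 0.1, 0 without the filter on low values, 0 with libraries rescaled to one total with or without globins, 0 with the replicate block and 3 with array quality weights, and 0 to 2 when 1 library was left out. In GFP-low MPPs the 3 calls became 0 without the filter and 0 to 2 when 1 library was left out. In GFP-low HSCs the count of 0 became 1 with array quality weights and 0 to 1 when 1 library was left out. In MPPs the count of 0 became 1 with the replicate block (Car2, limma adjusted p = 0.0372), and Car2 in GFP-low MPPs was lost with it (adjusted p = 0.0579). Same-numbered deviations correlated at -0.116 to 0.285, the highest being replicate 4 of the MPPs, with at least 1 pair in every table under 0.1. Whether the replicate numbers pair the libraries is not settled by these values. Without the filter more genes are tested; the cause of the other changes was not tested.

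Of 208 refits of the globins 24 changed sign, and of 453 refits of the other genes 17 did. Array quality weights turned the sign of Hbb-bs in HSCs (0.23), Tspo2 in GFP-high HSCs (0.0061), and in GFP-high MPPs of Aqp1 (-0.16), Car1 (-0.61) and Hba-a1 (-0.096). In GFP-high MPPs Car1 was at -0.0029 with a pseudocount of 0.1, and Tspo2 at 0.0422 and 0.0439 with both rescalings. With 1 library left out, HSC differences ran from -1.12 to 0.52 for Hbb-bs, -1.85 to 0.28 for Hba-a2, -1.83 to 0.275 for Hba-a1 and -0.55 to 0.76 for Hbb-bt. In MPPs they ran from -0.42 to 1.07 for Hbb-bs, -0.37 to 1.71 for Hba-a2, -0.34 to 1.71 for Hba-a1 and -0.21 to 0.95 for Hbb-bt. In GFP-high HSCs they were -0.10 to 0.50 for Hbb-bt and -0.41 to 0.13 for Tspo2, in GFP-low HSCs -0.34 to 0.98 for Car1, and in GFP-low MPPs -0.60 to 0.83 for Hba-a1. In GFP-high MPPs they were -0.35 to 0.85 for Aqp1, -0.95 to 0.73 for Car1, -0.12 to 1.04 for Hba-a1 and -0.50 to 0.25 for Tspo2. For the MPP minus HSC difference of effects they were -0.16 to 0.84 for Rhag, -0.78 to 0.30 for Car1, -0.10 to 0.68 for Ermap, -0.25 to 1.56 for Hbb-bs and -0.46 to 0.92 for Hbb-bt, and for GFP-low minus GFP-high in MPPs -1.08 to 0.35 for Hba-a1.

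Over all genes, the 17 calls in HSCs became 2 without the filter, 6 with either rescaling, 10 with the block and 33 with weights. The 15 in MPPs became 7 with the smaller pseudocount, 0 without the filter, 137 with the block, 247 with weights and 0 to 205 with 1 library left out. The 34 in GFP-low MPPs became 2 without the filter, 52 with the block and 0 to 31 with 1 library left out. The 3 in GFP-high HSCs became 2 without the filter or with the block and 5 with weights, the 0 in GFP-low HSCs became 3 with weights, and the 5 for MPP minus HSC became 1 with the smaller pseudocount and 0 with the block. With 1 library left out these counts ran from 9 to 17 in HSCs, 0 to 1 in GFP-high HSCs, 0 to 6 in GFP-low HSCs, 0 to 1 in GFP-high MPPs (0 with all) and 2 to 21 for MPP minus HSC. Rhag in GFP-high MPPs, with 10 reads in its lowest library, is the value most limited by depth among the genes described.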
